A study of Mus musculus with 6 samples.

Results

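This account covers the 3 saline libraries, out of 6 in the series, and describes the transcriptome of the saline-injected adolescent anterior cingulate cortex (ACC). They were chosen by their treatment label alone. Each library came from the ACC of 1 C57BL/6 mouse injected intraperitoneally with pyrogen-free saline at postnatal day 14 and dissected at postnatal day 45. The mice carried no transgene that the labels name, and the 3 LPS libraries entered no step. The mice were anaesthetised with isoflurane and pentobarbital and perfused with cold buffer, and the region was cut out by hand with a needle from slices, so every library is bulk cortex with all of its cell types. With 1 group there was no contrast to test, so all values below are descriptions, given for Saline 1, Saline 2 and Saline 3 in that order or as mean ± SD over n = 3 mice. The labels do not say whether the mice shared a litter or cage, so the spread over them may cover less than the spread between litters.

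The anterior cingulate cortex lies along the midline of the frontal lobe and is known for its part in pain affect, attention and mood. In rodents it is described as agranular, which means that it lacks a well-formed granular layer 4, and its output runs from layer 5 and layer 6 pyramidal neurons. Glutamatergic pyramidal cells make up most cortical neurons, and GABAergic interneurons, astrocytes, the oligodendrocyte lineage, microglia and vessel cells make up the rest. In adolescence, cortical circuits still add myelin, prune spines and exchange receptor subunits.

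The libraries held 39308376, 39804999 and 37416194 counts. Rows with an Ensembl identifier numbered 13562, of which 13549 were protein-coding in GENCODE M21, and the lowest mean count of any of these rows was 20. Levels are compared between genes only on the deposited FPKM scale (fragments scaled by transcript length and library depth), and mice are compared within a gene on counts scaled by library size (CPM). A gene whose exons overlap those of another gene has uncertain reads, because the kit is not stated to mark the strand. Among the genes named below this holds for Aldoa, Glul, Csf1r, P2ry12, Cnp, Gpr17, Tagln, Sulf2, Gabra4, Gabrb1, Chrnb2, Oprm1, Thra, Nr1d1, Kcnh3, Rab3a, Junb, the gamma protocadherins and several of the most variable genes. Mitochondrially encoded genes took 12.8%, 10.2% and 11.4% of the Ensembl counts, most in Saline 1. Log2 CPM correlated between mice with Pearson's r of 0.987 to 0.988 across 13551 genes of 1 tissue, where genes are not independent replicates. The 4 Y-linked genes listed had summed FPKM of 23.9, 25.7 and 29.7, and the X-inactivation transcripts were not analysed here. The labels give no sex.

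The 8 marker genes given for the main cell classes were all present in every mouse. The vesicular glutamate transporter gene Slc17a7 (7:45163949-45176142, GRCm38), which loads glutamate into the vesicles of pyramidal cells, had 522, 517 and 488 FPKM and was nuclear gene number 28 by abundance. Mbp, the gene of myelin basic protein, had 255, 336 and 322 FPKM and was number 81. The GABA-synthesising enzyme gene Gad1 (2:70553072-70602014) had 40.8, 45.8 and 46.2 FPKM and was number 1294. Cldn5, a tight-junction gene of brain endothelium (16:18776847-18778262), had 28.9, 28.4 and 34.0 FPKM, and the astrocyte water channel gene Aqp4 had 25.7, 28.9 and 29.5 FPKM. Csf1r, a receptor gene that microglia need to survive, had 25.3, 24.8 and 22.8 FPKM. The upper-layer transcription factor gene Cux2 (5:121856366-122050102) had 29.0, 32.9 and 24.1 FPKM, and the deep-layer factor gene Fezf2 (14:12342094-12348189) had 22.8, 22.8 and 23.7 FPKM. Slc17a7, Mbp, Gad1 and Cldn5 followed each other without overlap. The ranges of Cldn5 and Cux2, of Cux2 and Aqp4, and of Csf1r and Fezf2 overlapped, so 3 mice do not resolve the order within these pairs.

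**Figure D1:**
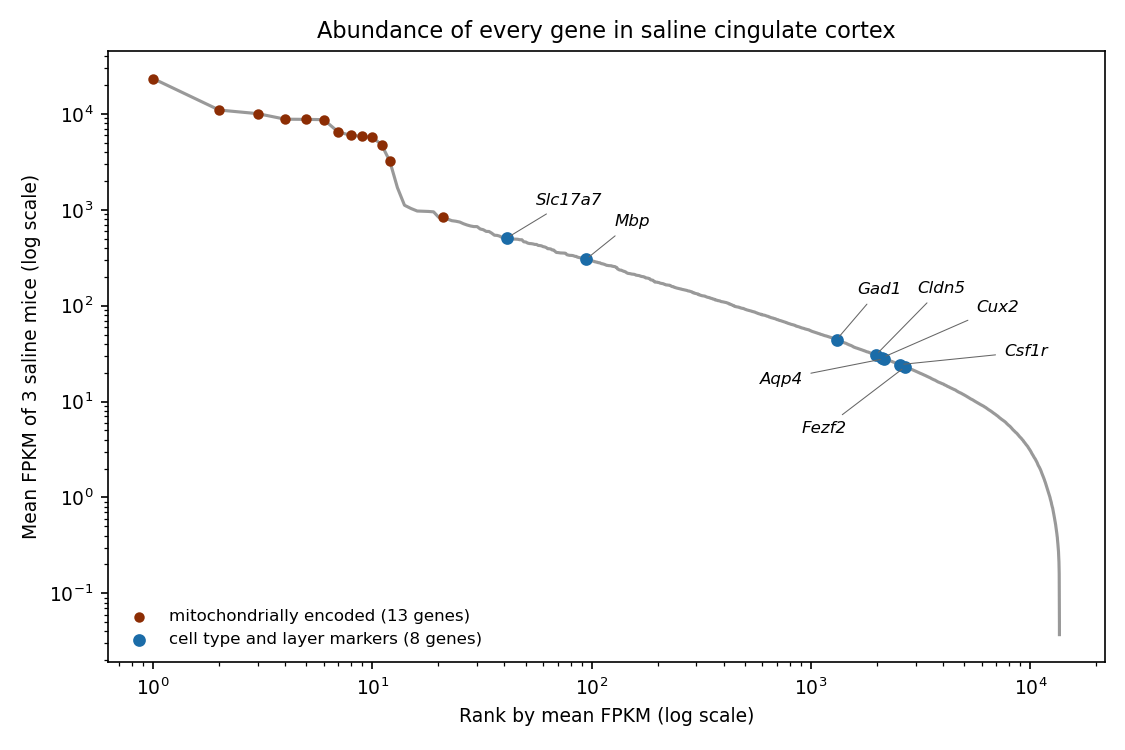
Mean FPKM of all 13562 genes (log scale) against their rank (log scale) in the 3 saline mice. The 13 mitochondrially encoded genes (brown) take the first 12 ranks and rank 21, Slc17a7 and Mbp (blue) lie among the 100 highest genes, and the other 6 markers lie between about 20 and 50 FPKM.

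A small number of genes carried much of the RNA. On FPKM, 268, 378 and 333 genes held 50% of the summed level, a mean of 326 ± 55.3. The 100 highest genes held 41.5%, 37.1% and 38.8%, and the 10 highest alone 25.2 ± 2.32%. This concentration came from the 13 mitochondrially encoded genes of the respiratory chain, which held 30.3%, 25.2% and 27.2% of the summed FPKM. The highest was mt-Co1, a subunit gene of cytochrome c oxidase, at 23431 ± 2475 FPKM. Without these genes the profile was flatter and closer between mice, since 937, 957 and 960 nuclear genes were needed for 50%, and the 100 highest nuclear genes held 17.3 ± 0.0476%. Nuclear genes of the respiratory chain (80 genes) held 1.60 ± 0.0576%, and the 83 cytosolic ribosomal protein genes held 2.36 ± 0.162%.

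By level, 15 genes reached 1000 FPKM and 3 of them were nuclear. Another 430 lay between 100 and 1000 FPKM, 5169 between 10 and 100, 6665 between 1 and 10, and 1283 below 1. The class below 1 FPKM held 9.46% of the genes and 0.199% of the summed FPKM. The median over all nuclear genes was 7.60 FPKM, and over the 100 highest 393 FPKM. Those 100 were shorter, with a median of 3239 exonic bases against 4627 over all nuclear genes, and less variable between mice, with a median coefficient of variation of 4.23% against 7.03%. Genes with at least 3000 counts had medians of 4.45% to 4.70%, so this evenness was close to that of other genes of high count.

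The most abundant nuclear transcript was Fth1, the heavy chain of the iron store ferritin, at 1683, 1669 and 1758 FPKM. It was followed by Snap25, a SNARE protein gene of synaptic vesicle fusion, at 1143, 1112 and 1097 FPKM, and by Calm2, a calmodulin gene, at 1037, 1006 and 1055 FPKM. The ranges of these 3 genes did not overlap. Among the next 17 were both neuronal and glial genes. The neuronal ones included Nrgn, a postsynaptic calmodulin-binding protein gene, at 953 ± 108 FPKM, Camk2a, the alpha subunit of a calcium-dependent kinase of excitatory synapses, at 771 ± 28.2 FPKM, and Kif5a, a neuronal kinesin gene, at 695 ± 17.3 FPKM. Tspan7, a tetraspanin gene, had 746 ± 18.4 FPKM. Glial and secreted products included Apoe, a lipid carrier of astrocytes, at 967 ± 203 FPKM, Sparcl1, a matrix protein gene, at 840 ± 12.7 FPKM, Cst3, a protease inhibitor gene, at 669 ± 42.4 FPKM, and Glul, the glutamine synthetase gene, at 632 ± 28.4 FPKM. Another calmodulin gene, Calm3, had 669 ± 108 FPKM. General cell functions were represented by Eef1a1 (translation elongation, 972 ± 79.8 FPKM), Cpe (peptide processing, 962 ± 21.1), Aldoa (glycolysis, 802 ± 20.3), Ckb (creatine kinase, 717 ± 44.1), Ubb (ubiquitin, 679 ± 36.4), Hspa8 (constitutive chaperone, 621 ± 14.2) and Atp6v0c (vesicular proton pump, 596 ± 68.2).

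Apoe was the least even of these 20 genes. Apoe had 786, 1186 and 930 FPKM, so that Saline 2 was 1.51-fold above Saline 1, and 1.46-fold in CPM. Calm3 followed, with 557, 771 and 679 FPKM, again highest in Saline 2.

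Grouped into marker lists, neuronal and astrocyte transcripts dominated. The 20 excitatory neuron genes summed to 3353, 3384 and 3145 FPKM, with Nrgn, Camk2a, Slc17a7 and Lmo4 at the top. The 20 astrocyte genes summed to 3127, 3647 and 3487 FPKM, of which Apoe made up 28.1%, Glul 18.5%, Clu (clusterin) 13.1% and Aldoc (brain aldolase) 9.82%. The ranges of these sums overlapped. The 20 oligodendrocyte genes summed to 1069 ± 152 FPKM and the 22 inhibitory neuron genes to 787 ± 31.8 FPKM. Lower sums were found for microglia (346 ± 6.94, 20 genes), endothelium (242 ± 19.0, 18 genes), oligodendrocyte precursors (161 ± 12.0, 12 genes) and mural cells (135 ± 14.3, 12 genes). Sums depend on which genes are listed and on RNA per cell, so they are not cell shares, and in bulk tissue fewer cells of a type and less RNA per cell cannot be told apart.

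**Figure D2:**
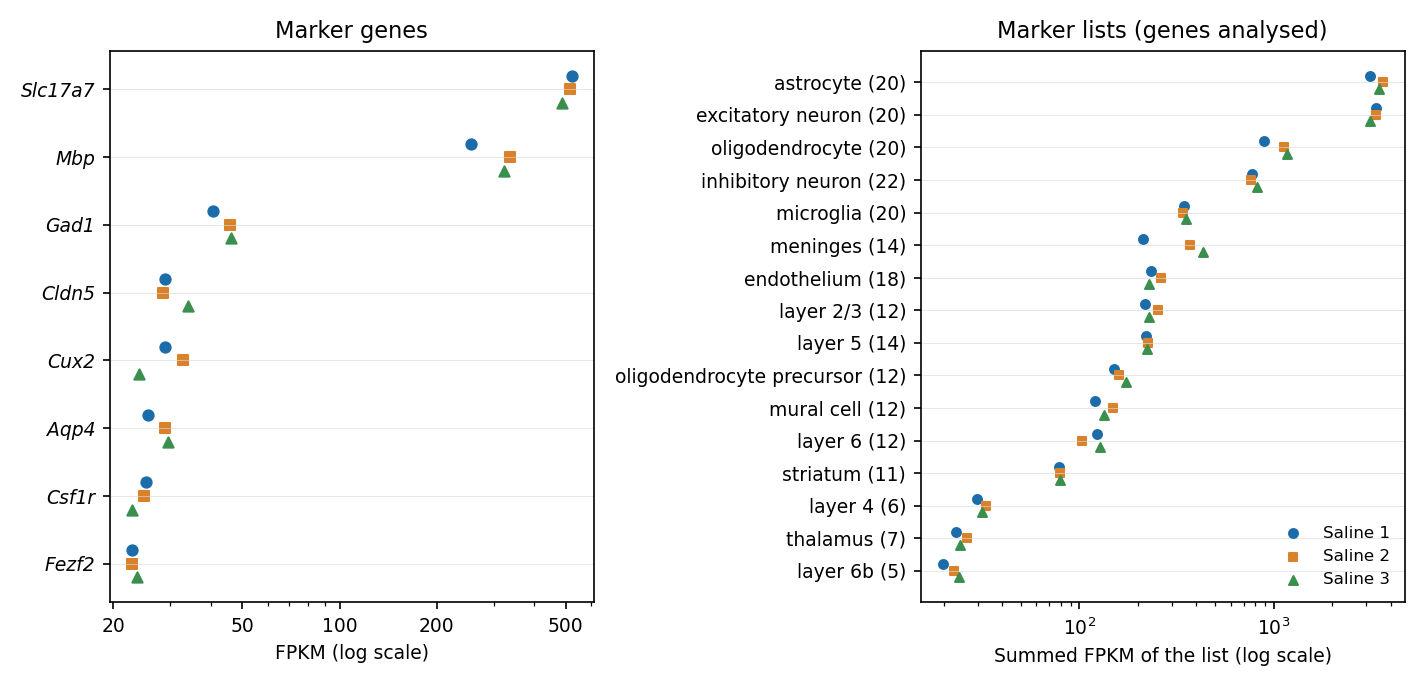
FPKM of the 8 marker genes (left, log scale) and summed FPKM of 16 marker lists with the number of genes analysed (right, log scale), 1 point per saline mouse. The astrocyte and excitatory neuron lists overlap at the top, and the meninges list is the one in which the mice lie furthest apart, from 213 in Saline 1 to 431 in Saline 3.

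The proportion of excitatory to inhibitory markers was highest in Saline 1 and lowest in Saline 3. The ratio of Slc17a7 to Gad1 was 12.8, 11.3 and 10.6 (11.6 ± 1.13). To the vesicular GABA transporter gene Slc32a1 it was 24.3, 21.0 and 20.2. Slc17a6, the other vesicular glutamate transporter gene and the main one of thalamus, had 2.65 ± 0.250 FPKM, so that Slc17a7 was 194 ± 24.7-fold above it. Within the excitatory list the forebrain neuron transcription factor genes ran from Tbr1 at 48.5 ± 4.32 and Neurod6 at 49.2 ± 4.51 FPKM to Emx1 at 8.70 ± 0.525 FPKM. Tbr1 and Neurod6 overlapped in range.

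Among interneuron genes the neuropeptide genes Sst and Npy stood highest. Sst, the gene of somatostatin, which marks dendrite-targeting interneurons, had 319, 283 and 339 FPKM. Npy, neuropeptide Y, had 130, 114 and 136 FPKM. Vip, which marks interneurons that inhibit other interneurons, had 14.4, 15.4 and 18.3 FPKM. Pvalb, parvalbumin of fast-spiking basket cells, had 14.04, 18.8 and 11.5 FPKM, which overlaps Vip. The Sst to Pvalb ratio was therefore 22.7, 15.0 and 29.4, and Pvalb counts were 589, 793 and 459. A transcript ratio of this kind says nothing of the number of cells of each class. Of the GABA machinery, the vesicular transporter gene Slc32a1 had 23.5 ± 1.73 FPKM and Gad2 17.95 ± 2.20 FPKM, and Gad1 was 2.48 ± 0.255-fold above Gad2. The lineage factor genes Dlx1, Lhx6, Maf and Sox6 lay between 3.85 and 6.18 FPKM.

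In the astrocyte list the median coefficient of variation was 5.20%, against 6.51% over all genes with a mean of at least 100 counts. It was 4.45% to 4.70% over genes with at least 3000 counts, so the list was no more even than genes of high count. The glutamate uptake gene Slc1a3 had 169, 168 and 169 FPKM, and the GABA transporter gene Slc6a11 had 49.1, 50.1 and 49.8 FPKM. The main astrocyte glutamate transporter gene Slc1a2 had the widest range of the list. Slc1a2 had 68.5, 81.7 and 274 FPKM from 33067, 38661 and 128020 counts, so Saline 3 stood 3.89-fold above Saline 1 in CPM, while the other 19 astrocyte genes differed by at most 1.46-fold. The intermediate filament gene Gfap had 35.5, 45.5 and 49.5 FPKM. For microglia genes the median was 7.497%. The complement genes C1qa, C1qb and C1qc had 37.5 ± 1.84, 32.7 ± 0.601 and 29.6 ± 0.757 FPKM, the lysosomal protease gene Ctss 38.1 ± 1.62 FPKM, and Tmem119, a marker of resident microglia, 10.1, 10.9 and 10.7 FPKM. P2ry12, a purinergic receptor gene of microglia, was lowest in Saline 2, at 31.2, 16.2 and 31.4 FPKM, with 2.46-fold in CPM, and its exons overlap those of Med12l. The fractalkine receptor gene Cx3cr1 was lowest in Saline 1, at 1.32, 2.46 and 2.62 FPKM from 217, 421 and 413 counts.

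High members of the oligodendrocyte list were Mbp, Mobp (176 ± 31.2 FPKM) and Cnp (63.2 ± 10.4), all genes of compact myelin or its assembly. Genes of the precursor list, not all of them particular to precursors, were lower. The lineage factor gene Olig1 had 51.7 ± 3.12 FPKM and Bcas1, which marks cells beginning to myelinate, 33.1 ± 6.58. Gpr17 had 15.1 ± 1.73 and Sox10 13.3 ± 0.857 FPKM. Mbp stood 29.1 ± 1.64-fold above Pdgfra, the growth factor receptor gene of precursors. Vessel genes were led by the glucose transporter gene Slc2a1 (45.5 ± 8.15 FPKM), Cldn5, Ly6c1 and Itm2a in endothelium, and by Vtn, Rgs5, Acta2 and Tagln in mural cells. The smooth muscle genes Acta2, Tagln and Myh11 were each highest in Saline 2, at 27.4, 10.7 and 7.21 FPKM, against 16.7 to 20.1, 6.60 to 7.68 and 4.22 to 4.38 FPKM in the other mice. Of the 11 mural genes with a mean of at least 100 counts, 6 had their highest CPM in Saline 2, against 33.6% of all genes. The others were highest in Saline 1 (2 genes) or Saline 3 (3 genes).

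Markers of neighbouring tissue were present at summed levels that differed by list, of which the border macrophage list was lowest and the meninges list highest. Of 11 striatal genes analysed, Ppp1r1b (DARPP-32) had 26.9 ± 0.867, Penk 16.7 ± 1.70 and Tac1 7.65 ± 1.81 FPKM, all also expressed in cortical neurons, while the striatal dopamine and adenosine receptor genes Drd2 and Adora2a had 0.643 ± 0.300 and 1.31 ± 0.339 FPKM. The 7 thalamic genes summed to 24.6 ± 1.74 FPKM, led by Calb2, which cortical interneurons also express. Choroid plexus and ependymal genes summed to 5.98 ± 0.528 FPKM over 4 of 11 genes, and border macrophage genes to 0.720, 1.82 and 1.85 FPKM over 4 of 7, the defining gene Mrc1 among them at 0.354, 0.796 and 0.833 FPKM. None of the 12 blood cell genes listed was analysed here. The meninges list summed to 213, 373 and 431 FPKM. Ptgds, the prostaglandin D synthase gene, made up 84.9% of it and is also expressed by oligodendrocytes, and Igf2, Slc6a20a and Dcn followed at 14.6 ± 5.46, 8.03 ± 2.89 and 6.51 ± 2.67 FPKM.

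Layer markers placed upper and layer 5 programmes at like summed levels. The 12 genes of layer 2/3 summed to 218, 253 and 229 FPKM and the 14 genes of layer 5 to 221, 224 and 223 FPKM, so these sums overlapped. The 12 genes of layer 6 summed to 123, 103 and 127 FPKM. The shorter lists of layer 4 and layer 6b summed to 31.4 ± 1.63 FPKM over 6 genes and 22.1 ± 2.11 over 5. Per gene, the median was 17.1 FPKM in layer 2/3, 11.2 in layer 5, 4.05 in layer 4, 3.25 in layer 6 and 2.15 in layer 6b, so layer 4 genes were not lower than layer 6 genes by this measure. Rorb, a nuclear receptor gene of granular layer 4 neurons, had 3.11, 3.41 and 2.86 FPKM, and the layer 4 sodium channel gene Scnn1a had 0.507, 0.533 and 0.7999 FPKM. In the layer 4 list the highest genes were Whrn (10.04 ± 0.307) and Plcxd2 (9.52 ± 0.540), with overlapping ranges, then Cdh4 and Rspo1.

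In layer 2/3 the highest genes were Rasgrf2, a Ras exchange factor gene, at 42.5 ± 5.06 FPKM, Lhx2, a LIM homeobox gene, at 39.5 ± 0.469, Wfs1, an endoplasmic reticulum protein gene, at 34.2 ± 11.5, and Calb1, calbindin, at 29.98 ± 1.61, each overlapping the next in range. Wfs1 was low in Saline 1, with 21.1 FPKM against 39.3 and 42.3. Layer 5 was led by Crym (thyroid hormone-binding crystallin, 38.5 ± 4.30), Ldb2 (35.3 ± 3.61), Sulf2 (35.1 ± 1.27) and Fezf2, with Bcl11b, the factor gene of subcortically projecting neurons, at 10.4 ± 0.771. Layer 6 was led by Tbr1, Rprm (26.4 ± 5.13), Hs3st4 (13.7 ± 1.53) and Tle4 (10.9 ± 1.096). Layer 6b was led by Ctgf, at 15.8 ± 2.07 FPKM, which vessel cells also express, and then by Cplx3, Moxd1 and Nxph4, all far lower, with Cplx3 at 2.79 FPKM on average.

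The Cux2 to Fezf2 ratio was 1.27, 1.44 and 1.02 (1.24 ± 0.215). Its order depends on the length scale, because with counts divided by the full exonic length of the annotation the ratio was 0.772. The ratio was highest in Saline 2 and lowest in Saline 3. Saline 2 also had the lowest CPM of the 3 mice in 9 of the 12 layer 6 genes and the highest in 8 of the 12 layer 2/3 genes. Over all 12386 genes with a mean of at least 100 counts, Saline 2 was lowest in 32.7% and highest in 33.6%. How much of each layer entered a dissection was not measured.

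Turning to receptors, AMPA receptors carry fast excitation, and the GluA2 subunit, encoded by Gria2, makes them impermeable to calcium. Gria1 had 60.6, 59.2 and 68.9 FPKM, Gria2 48.3, 52.7 and 53.3, Gria3 33.5, 44.5 and 33.1, and Gria4 20.7, 22.2 and 21.5. No range in this order overlapped the next. Gria2 made up 29.6%, 29.5% and 30.1% of the family's FPKM, the most even share of the 4. Gria1 stood 1.22 ± 0.0902-fold above Gria2. With counts per exonic length the Gria2 share was 22.8%.

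NMDA receptors pair the obligatory subunit GluN1, encoded by Grin1, with GluN2 subunits, and postnatal cortex is known for a shift from GluN2B to GluN2A. Grin1 had 134, 133 and 121 FPKM and made up 68.4% of the family. Grin2b had 21.1, 22.3 and 19.6 FPKM and Grin2a 16.05, 18.3 and 13.4, so Grin2a was below Grin2b in each mouse, at 0.760, 0.823 and 0.684 of its level. Grin2c had 12.5 ± 0.178, Grin3a 6.52 ± 0.339 and Grin2d 3.84 ± 0.509 FPKM. Grin3b was not analysed here. With counts per exonic length the Grin2a to Grin2b ratio was 0.485, further below 1.

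Kainate receptors were represented mainly by the subunit gene Grik5, with 66.9, 66.5 and 66.3 FPKM, 70.3% of the family. Grik3, Grik2 and Grik4 followed at 13.5 ± 0.8502, 7.07 ± 1.78 and 4.93 ± 0.0128 FPKM. The delta receptor gene Grid1 had 12.1 ± 0.607 FPKM. Among metabotropic receptor genes, Grm3 (31.8 ± 1.15), Grm5 (25.6 ± 1.62), Grm2 (22.2 ± 1.69) and Grm7 (11.5 ± 0.331) were the highest, and only Grm5 and Grm2 overlapped among these 4. Grm3 and Grm2 encode Gi-coupled receptors, and Grm5 a Gq-coupled receptor of postsynaptic and astrocyte membranes.

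GABA-A receptors are pentamers of alpha, beta and gamma or delta subunits. Of the alpha genes, Gabra3 had 47.9, 44.3 and 47.5 FPKM, Gabra4 20.5 ± 0.216, Gabra5 18.7 ± 1.27 and Gabra2 8.10 ± 0.689. These 4 genes kept this order in every mouse. Of the beta genes, Gabrb2 had 25.1 ± 2.03 and Gabrb1 13.1 ± 0.0484 FPKM. Gabrd, a subunit gene of extrasynaptic receptors, had 21.3, 24.02 and 20.3 FPKM. Gabrg1 and Gabrg3 overlapped at 4.88 ± 0.707 and 4.74 ± 0.182 FPKM, and Gabrq was at 0.217 ± 0.0801 FPKM from 48, 29 and 52 counts. Gabra6, Gabre, Gabrp, Gabrr1 and Gabrr2 were not analysed here. The GABA-B receptor genes Gabbr1 and Gabbr2, whose products form an obligatory pair, had 207 ± 6.86 and 82.7 ± 2.46 FPKM, a ratio of 2.51 ± 0.120.

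**Figure D3:**
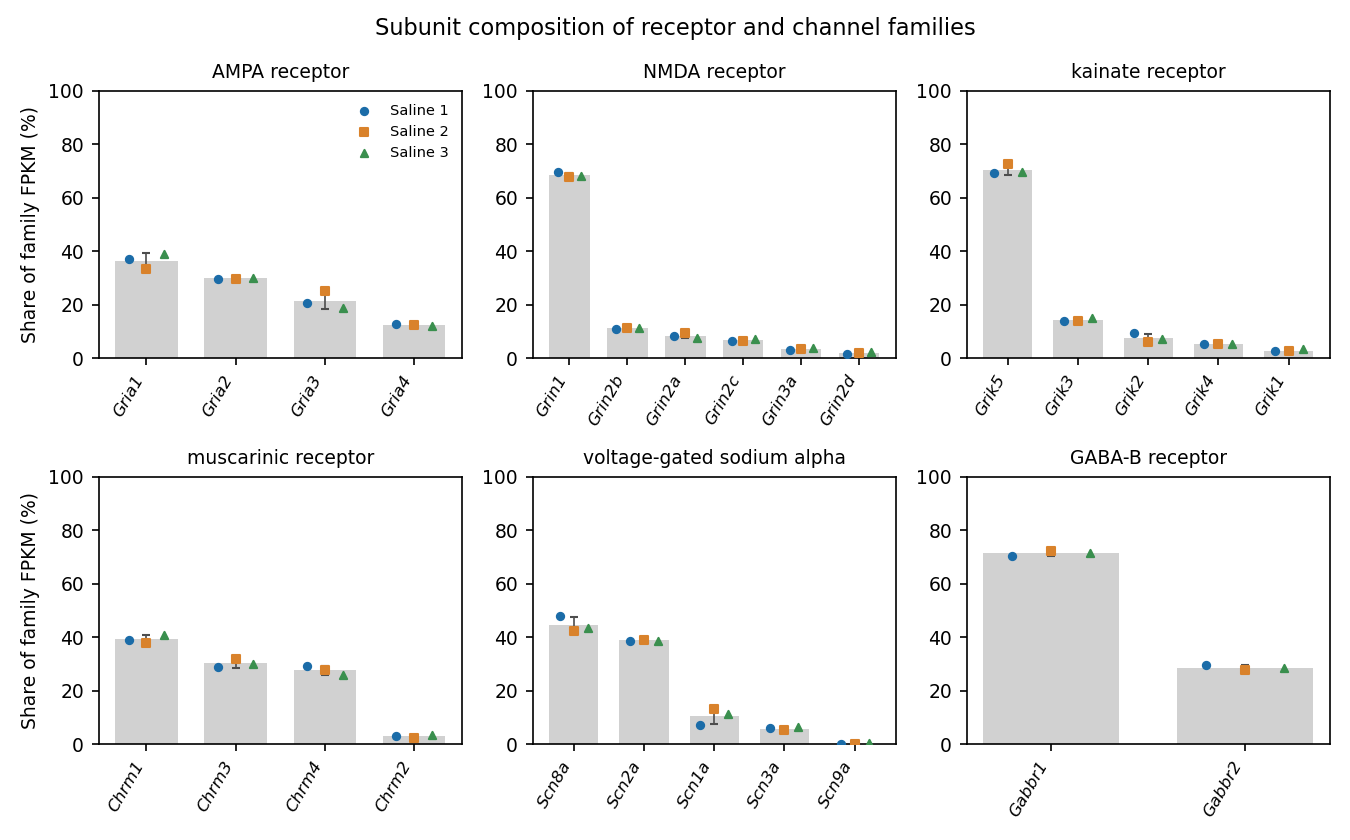
Share of each subunit gene in the summed FPKM of its family, in percent, for 6 receptor and channel families. Bars are means of the 3 saline mice, error bars SD, and points the mice: Grin1 (68.4%), Grik5 (70.3%) and Gabbr1 (71.5%) each hold most of their family, while AMPA receptor subunits are more evenly divided, from 36.4% for Gria1 to 12.4% for Gria4.

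The chloride gradient on which GABA-A inhibition depends is set by the exporter KCC2 and the importer NKCC1. Slc12a5, the KCC2 gene, had 68.5, 77.1 and 67.5 FPKM and Slc12a2, the NKCC1 gene, 7.11, 8.15 and 8.15 FPKM. The ratio was 9.64, 9.45 and 8.28. NKCC1 is also made by glia, so the ratio is one of tissue, not of neurons.

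Modulator receptor genes covered a wide range of levels. Among muscarinic genes, Chrm1 had 34.4 ± 2.11, Chrm3 26.6 ± 3.52, Chrm4 24.3 ± 3.58 and Chrm2 2.53 ± 0.192 FPKM. The nicotinic genes Chrna4 and Chrnb2, which encode the main brain heteromer, had 9.03 ± 0.180 and 8.44 ± 0.371 FPKM, and Chrna7 had 4.75 ± 0.534. Of the serotonin receptors, 10 genes summed to 27.7, 31.7 and 30.3 FPKM, led by Htr2a (5.39 ± 0.552), Htr5a (4.56 ± 0.175), Htr1b (4.05 ± 1.71) and Htr2c (3.52 ± 0.296), with overlaps from Htr5a to Htr2c. Dopamine receptors were at the low end, with Drd1 at 2.31, 2.04 and 2.12 FPKM from 355, 315 and 307 counts, Drd2 at 0.469, 0.470 and 0.989 FPKM from 52, 52 and 103 counts, and Drd5 at 0.599 ± 0.177 FPKM. Drd2 and Drd5 overlapped, and at these counts their order was not resolved. Adrenergic genes were led by Adra1d and Adrb1, which overlapped at 20.6 ± 3.33 and 20.6 ± 0.797 FPKM, then Adra1b (8.37 ± 1.09) and Adra2c (5.65 ± 0.900). Of the opioid receptors, Oprl1 had 7.94 ± 0.277, Oprd1 5.17 ± 0.796, Oprk1 1.31 ± 0.310 and Oprm1 0.422 ± 0.158 FPKM, the last from 25, 36 and 41 counts. The cannabinoid receptor gene Cnr1 had 24.9 ± 1.71, the adenosine A1 receptor gene Adora1 38.4, 26.3 and 34.0, and the histamine H3 receptor gene Hrh3 27.9 ± 2.18 FPKM. Of the peptide receptors, Ntsr2, an astrocyte gene, had 57.1 ± 5.67, Cckbr 41.4 ± 0.787, Adcyap1r1 28.0 ± 3.48 and Npy1r 10.5 ± 0.369 FPKM.

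Nuclear receptor genes showed 1 dominant member. Thra, a thyroid hormone receptor gene, had 352, 336 and 373 FPKM, 81.7% of its list and 18.3 ± 2.38-fold above Thrb. Its exons overlap those of Nr1d1, which lies on the opposite strand, so its level is uncertain. The glucocorticoid receptor gene Nr3c1 had 18.3, 20.4 and 18.2 FPKM and the mineralocorticoid receptor gene Nr3c2 6.02, 4.32 and 5.37. Of the neurotrophin receptors, Ntrk2, the BDNF receptor gene, had 98.8 ± 4.16 and Ntrk3 22.4 ± 2.90 FPKM, while Ngfr was at 0.262 ± 0.0598.

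Ion channels set how these inputs are turned into spikes. Among sodium channel alpha genes, Scn8a, of the mature axon initial segment, had 37.9, 37.8 and 34.3 FPKM and Scn2a 30.4, 35.0 and 30.6. Their ranges overlapped, although Scn8a was higher in each mouse, with a ratio of 1.25, 1.08 and 1.12. Scn8a made up 44.5 ± 3.11% and Scn2a 38.8% of the family. Scn1a, which is known for its part in interneurons, had 5.602, 11.8 and 9.02 FPKM, a 2.24-fold range in CPM with Saline 1 lowest. Scn3a, known as an early-life channel gene, had 4.82 ± 0.143 and Scn9a 0.225 ± 0.0122 FPKM. Scn4a, Scn10a and Scn11a were not analysed here. Of the beta subunit genes, Scn2b had 48.4 ± 1.33, Scn3b 9.64 ± 1.34 and Scn4b 5.96 ± 0.895 FPKM.

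Calcium channel genes were led by Cacna1a (P/Q type, 28.2 ± 1.23 FPKM), Cacna1i (T type, 20.2 ± 2.89), Cacna1b (N type, 15.6 ± 2.11) and Cacna1e (R type, 15.2 ± 0.673), and by the auxiliary genes Cacnb3 (114 ± 4.34), Cacnb1 (48.4 ± 3.84), Cacna2d1 (29.3 ± 5.28) and Cacnb4 (27.8 ± 1.62). Cacna2d1 counts were 9559, 9892 and 3668, a 2.59-fold range in CPM against 1.42-fold in FPKM, so the length implied by counts over FPKM differed between mice. HCN channels, which carry the current that opens on hyperpolarisation, were represented by Hcn2 at 50.5, 51.4 and 49.8 FPKM, Hcn3 at 4.73 ± 0.219 and Hcn4 at 0.745 ± 0.0234. Hcn2 made up 82.9% of the family, and the ranges of these 3 genes did not overlap.

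Voltage-gated potassium channels were spread over many genes. The 36 analysed, of 40 listed, summed to 446 ± 27.1 FPKM, and the highest, Kcnh3, held 11.9% at 53.0 ± 3.69 FPKM. Kcnf1, a silent modifier subunit gene, had 38.5 ± 3.15 FPKM and Kcnc4 31.1 ± 1.08 FPKM. Kcna2, a fast-opening axonal channel gene, had 4.74, 25.4 and 21.6 FPKM, and Kcnq5, an M-current channel gene, 22.1, 22.004 and 5.89. The low mouse was therefore Saline 1 for Kcna2 and Saline 3 for Kcnq5. Of the other potassium families, Kcnj4 (50.3 ± 2.66), Kcnj9 (45.2 ± 1.91), Kcnj10 (44.5 ± 1.94) and Kcnj11 (14.9 ± 1.05) led the inward rectifiers, of which Kcnj10 is the astrocyte channel gene. Kcnma1 (27.9 ± 1.16) and Kcnt1 (14.8 ± 1.25) led the calcium- and sodium-activated channels, and Kcnk1 (36.1 ± 2.48) and Kcnk2 (13.4 ± 1.32) the leak channels. The 14 TRP channel genes analysed summed to 49.0 ± 2.78 FPKM, with Trpc1 highest at 9.28 ± 0.549.

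Several synaptic genes stood among the most abundant. The 27 presynaptic release genes summed to 5123, 5027 and 4890 FPKM, led by Snap25, Vamp2 (544 ± 22.6), Syp (436 ± 4.29) and Rab3a (381.5 ± 13.2). The 21 postsynaptic scaffold genes summed to 2120, 2114 and 1964 FPKM, led by Camk2a, Dlg4, the PSD-95 gene (274 ± 8.30), Camk2b (164.5 ± 12.7) and Dlgap1 (112.5 ± 2.97). Median coefficients of variation were 5.94% and 6.51%, against 6.51% over all genes with a mean of at least 100 counts and 4.45% to 4.70% over genes with at least 3000, so these lists were no more even than genes of high count. Gap43 (151 ± 13.9 FPKM), Tubb3 (142 ± 6.87) and Stmn2 (137.5 ± 5.75), growth-cone and cytoskeleton genes that are high in young neurons, were still abundant, and Nnat, the neuronatin gene, had 48.6 ± 7.04 FPKM, while Dcx, a marker of migrating neurons, had 3.97, 3.07 and 4.40 FPKM. Mki67, of dividing cells, was at 0.132 ± 0.0251 FPKM from 47, 69 and 54 counts, and 7 of the 10 proliferation genes listed were not analysed here. Of the perineuronal net genes, Bcan (68.1 ± 5.32), Ncan (41.4 ± 2.45), Ptprz1 (37.6 ± 1.04) and Hapln4 (30.9 ± 4.01) were the highest, and Acan, aggrecan, had 0.324, 0.465 and 0.387 FPKM.

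Neuropeptides were among the highest secreted products, led by Cck at 493, 529 and 463 FPKM. Cck, cholecystokinin, stood 1.55, 1.87 and 1.37-fold above Sst, and Chgb and Npy followed at 163 ± 6.02 and 127 ± 11.4 FPKM. Chgb and Scg2 (60.04 ± 6.26) encode granins of dense-core granules. The 21 genes of the list that were analysed summed to 1422, 1394 and 1423 FPKM. The list also holds Cbln1, Cbln2, Cbln4 and the binding protein gene Crhbp, which are not neuropeptide genes. The Sst promoter is the textbook site of the cyclic AMP response element (CRE), the palindrome TGACGTCA bound by CREB. Of 15 genes of the neuropeptide list matched by symbol to a RefSeq promoter, 4 (26.7%) held it within 250 bases before the start. The share was 3.09% over the 10594 analysed genes matched. Both strands were searched, which are the same for a palindrome. The stretches around it (RefSeq, GRCm38.p6, 5′ to 3′ on the gene's strand) are shown because these genes include the second highest neuropeptide and 2 granins. Capitals mark the CRE.
Sst, chr16:23890845-23890932, minus strand: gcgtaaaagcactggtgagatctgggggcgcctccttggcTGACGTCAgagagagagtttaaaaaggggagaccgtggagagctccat
Chgb, chr2:132781530-132781617, plus strand: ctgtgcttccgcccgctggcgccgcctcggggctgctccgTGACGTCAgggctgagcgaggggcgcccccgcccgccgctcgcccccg
Scg2, chr1:79440047-79440134, minus strand: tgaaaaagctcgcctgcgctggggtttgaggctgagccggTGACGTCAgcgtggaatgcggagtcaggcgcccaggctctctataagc
Cartpt, chr13:99900748-99900835, minus strand: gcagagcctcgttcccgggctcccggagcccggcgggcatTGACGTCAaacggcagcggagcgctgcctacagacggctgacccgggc
The element began 48 bases before the start in Sst, 68 in Scg2, 72 in Chgb and 112 in Cartpt. The 4 genes did not share a level, since Sst had 314 ± 28.3 and Cartpt 1.44 ± 0.384 FPKM. A match of these letters is a description and shows no binding, and 6 of the 21 genes of the list had no promoter matched. The CRE was also counted in other lists, of which the immediate early genes held it in 2 of 20 (10%).

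Immediate early genes, which neurons induce within minutes of activity, were at high levels in all 3 mice. Arc, an activity-regulated synaptic gene, had 214, 218 and 148 FPKM, Egr1 164, 163.5 and 109, Junb 135, 146 and 112, and Jund 127.5, 122 and 120. Fos had 56.8, 52.5 and 43.8 FPKM and Npas4 25.9, 24.8 and 21.6. The 26 genes summed to 1352, 1343 and 1072 FPKM. Saline 3 had the lowest CPM in 22 of 26, against 35.0% of all genes, and Saline 1 the highest in 19, against 32.0%. Heat shock genes, which respond to other stresses, showed no such order: they summed to 1698, 1743 and 1781 FPKM, and Saline 3 was lowest in 5 of 13. The glucocorticoid-responsive genes summed to 446, 432 and 458 FPKM, with Mt1 and Mt2, metallothionein genes, at 228 ± 17.5 and 101 ± 5.86, and Tsc22d3 and Sgk1 at 26.05 ± 2.42 and 24.9 ± 1.75. Saline 3 was lowest in 3 of the 11 with a mean of at least 100 counts.

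Clock genes were also lower in Saline 3. The highest were the clock-output factor gene Tef (71.9, 82.3 and 68.9 FPKM), Bhlhe40 (72.2, 77.5 and 50.0), Nr1d1 (51.8, 53.4 and 49.4) and Hlf (47.6, 54.3 and 43.0). Per1, a core repressor gene that activity also induces, had 36.6, 37.6 and 26.1 FPKM, and the core activator genes Arntl and Clock had 13.4 ± 0.789 and 10.7 ± 0.264. Of 16 genes, 12 were lowest in Saline 3, against 35.0% of all genes. The labels give no time of day for tissue collection. Clock factors bind the E-box CACGTG, a palindrome, and 5 of 14 matched clock genes (35.7%) held it within 250 bases before the start, against 9.79% of all genes matched and 29.4% of the 17 peptide receptor genes matched. The stretches of the 3 with the highest FPKM, Tef with its 2 annotated starts among them, are shown with the E-box in capitals.
Tef, chr15:81802526-81802571, plus strand: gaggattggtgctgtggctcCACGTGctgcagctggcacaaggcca
Tef at its other start, chr15:81811256-81811301, plus strand: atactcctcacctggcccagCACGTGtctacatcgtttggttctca
Per1, chr11:69098763-69098808, plus strand: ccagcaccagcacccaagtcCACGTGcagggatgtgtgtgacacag
Ciart, chr3:95882319-95882364, minus strand: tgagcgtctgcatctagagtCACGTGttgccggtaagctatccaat
Of the genes with the E-box, Tef, Per1, Cry1 and Bhlhe41 had their lowest CPM in Saline 3. Ciart, a clock repressor gene, had 15.2, 14.9 and 14.9 CPM, so Saline 2 and Saline 3 were level. Any link between the E-box and this order was not tested.

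Seen by mouse, several lists moved as blocks. The median deviation of a list, in log2 CPM from each gene's mean over the mice, was 0.00 in every mouse for all genes. For the meninges it was -0.59, 0.30 and 0.36, and Saline 1 was lowest in 13 of 13 genes with a mean of at least 100 counts, against 32.3% of all genes. The retinoic acid synthesis gene Aldh1a2 had 134, 353 and 515 counts, and the collagen gene Col1a1 1.15, 2.97 and 2.54 FPKM. Of these 13 genes 7 had a range over 2-fold between the mice, against 2.28% of all 12386 genes. The oligodendrocyte list had -0.19, 0.07 and 0.12, with Saline 1 lowest in 19 of 20 genes, and the precursor list -0.07, 0.02 and 0.04, with 10 of 12. Astrocyte (0.01, 0.01 and -0.02), microglia (0.00, 0.02 and 0.01) and endothelium lists (-0.02, 0.02 and 0.00) did not separate the mice. Mitochondrially encoded genes were highest in Saline 1 in 13 of 13, with 0.21, -0.17 and -0.04.

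**Figure D4:**
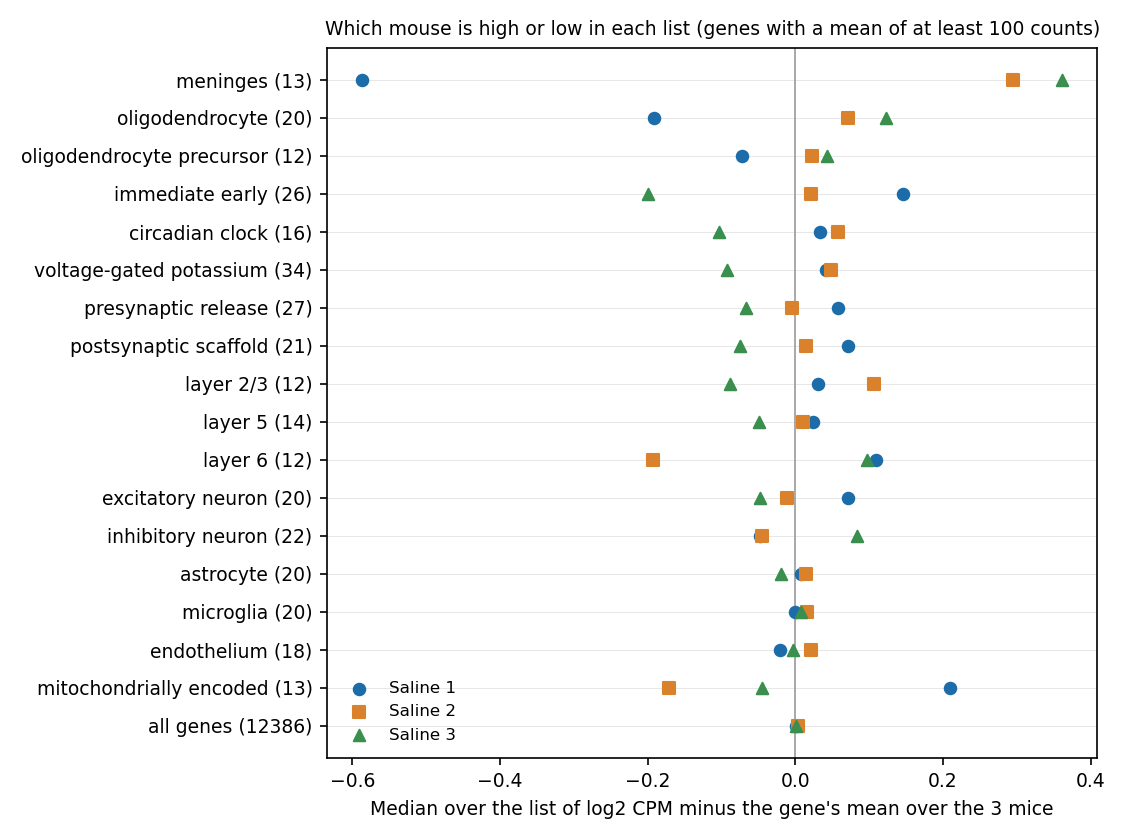
Median over each list of a gene's log2 CPM minus its mean over the 3 mice, 1 point per mouse, with the number of genes with a mean of at least 100 counts. Saline 1 lies at -0.59 for meninges and -0.19 for oligodendrocytes, Saline 3 at -0.20 for immediate early genes, Saline 2 at -0.19 for layer 6, and all genes at 0.00.

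Saline 3 was low in some neuronal lists, though not all, beside the immediate early and clock genes. It had the lowest CPM in 24 of 34 voltage-gated potassium genes (median deviation -0.09), 19 of 27 presynaptic genes (-0.07), 16 of 21 postsynaptic genes (-0.08) and 9 of 12 layer 2/3 genes (-0.09), against 35.0% of all genes. Excitatory neuron genes were lowest in Saline 3 in 11 of 20 (-0.05), but with library totals without mitochondrial genes in 8, and then in Saline 2 in 10. Inhibitory neuron genes went the other way, with 13 of 22 highest in Saline 3, against 34.3% of all genes, and a median deviation of 0.08. Layer 6 genes were not low in Saline 3 either, with 6 of 12 highest there (0.10). But 5 were highest in Saline 1 (0.11), and it was Saline 2 that stood apart (-0.19). The neuropeptide list had 9 of 20 (45%) highest in Saline 3 (0.04), while its median deviation was larger in Saline 1 (0.05). The serotonin receptor list had 5 of 8 highest in Saline 3 (0.09) and 3 lowest there. With 1 library per mouse, an animal's state, its dissection and its library cannot be told apart, and the part of any of them in these orders was not tested.

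Across all genes the mice were close. The common biological coefficient of variation, edgeR's estimate of the spread between mice beyond counting error, was 0.133. The median gene had a coefficient of variation of 6.51% and a 1.13-fold range. At 100 to 300 counts the median was 12.7%, of which counting alone gives 7.36%, and from 3000 counts on it was 4.45% to 4.70%. A range over 2-fold was found in 283 of 12386 genes (2.28%), and one over 1.5-fold in 897 (7.24%). Low counts held more of them, with 4.80% at 100 to 300 counts and 1.64% at 10000 counts or more. The low mouse was Saline 1 in 99, Saline 2 in 96 and Saline 3 in 88, so no mouse accounted for these genes.

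Ranges over 10-fold occurred in 16 genes. Entpd4, a nucleotidase gene, had 1744, 2085 and 0 counts, and Pcdhb19, a beta protocadherin gene, 330, 520 and 0. Nanp, a sialic acid synthesis gene, had 234, 0 and 428 counts, and Epo, erythropoietin, 195, 199 and 0. Against a floor of 3 counts per library, the highest mouse stood at least 659-fold above the lowest for Entpd4, 164-fold for Pcdhb19, 150-fold for Nanp and 64.6-fold for Epo. Entpd4, Nanp and Epo share exons with another gene of the table. For Epo, at 5.23, 5.09 and 0 CPM, the sum with the other gene, Gnb2, had a range of 1.03-fold. A sum with a far more abundant gene stays even whatever the lower gene does, so such a sum cannot show whether reads moved between genes. The sums stayed above 2-fold for Entpd4 with Gm16867 (2.97-fold) and Nanp with Ninl (2.50-fold). Ptp4a1, a phosphatase gene whose symbol occurs in 2 rows, had 1095, 27 and 1012 counts, and its pair summed to a 1.98-fold range. Commd5 had 272, 11 and 200 counts (1.098-fold with its partner) and the mitochondrial ribosome gene Mrpl53 76, 614 and 37 (1.26-fold with its partner). Rpl29, a ribosomal protein gene, had 168, 2030 and 1741 counts and shares exons with no other gene of the table. Zbtb20 had 1977, 3232 and 94 counts but 2.48, 3.57 and 1.14 FPKM, and Vkorc1l1 1125, 1332 and 54 counts but 6.31, 7.24 and 1.34 FPKM.

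**Figure D5:**
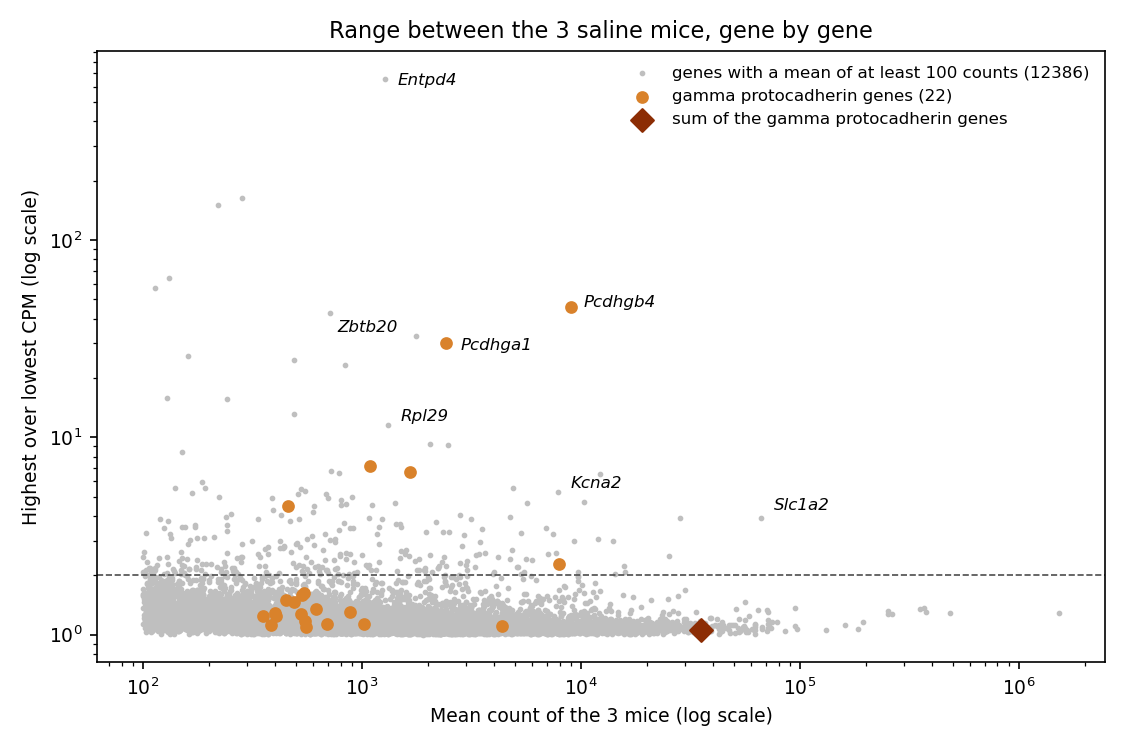
Highest over lowest CPM of the 3 saline mice against the mean count (both on log scales) for 12386 genes, with the 2-fold line dashed and genes at 0 set to the floor of 3 counts. Of the 22 gamma protocadherin genes (orange) 6 lie above 2-fold, while their sum (diamond) has a range of 1.05-fold.

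In the gamma protocadherin genes, single members differed while their sum did not. Protocadherins are cell adhesion molecules of neurons, and the 22 genes of the cluster on chromosome 18 each join their own variable exon to shared constant exons. Pcdhgb4 had 13776, 314 and 13095 counts, and Pcdhga1 246, 6790 and 215, so that Saline 2 was low for one and high for the other. The cluster as a whole was even, with 951, 956 and 906 CPM. Of the 22 genes 6 had a range over 2-fold, against 2.28% of all 12386 genes.

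Among the 283 variable genes, 25.4% shared exons with another gene of the table, against 17.0% of all genes. For 58 of these 72 genes the sum with the overlapping genes had a range of at most 2-fold. Such sums were not taken for the other genes, and a far more abundant partner makes any sum even. The length implied by the deposited values, counts over FPKM, differed by over 10% between mice in 50.5% of the variable genes and in 15.1% of all genes. In 98 variable genes neither was seen. These included Slc1a2, Kcna2, Kcnq5 and Nptxr, a neuronal pentraxin receptor gene with 14570, 56708 and 13724 counts. The part of read assignment in these ranges was not tested beyond these counts.

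At the other end, 8 genes with a mean of at least 1000 counts agreed to within 0.16% (coefficient of variation): Armcx1, Trim32, Fam160b1, Rgmb, Hspa8, Neurl1a, Canx and Ncdn. Armcx1 had 50.1 CPM in each mouse. The chaperone gene Hspa8 had 1652, 1648 and 1652 CPM, the calnexin gene Canx 312, 311 and 312, and the neurochondrin gene Ncdn 1137, 1135 and 1133. They were picked for their evenness, and agreement this close lies below the counting error of their libraries.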

How the data were processed

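The data are 1 table of polyA RNA sequencing of mouse ACC, of which the 3 saline columns were used. The deposited counts are whole numbers of reads per gene and the deposited FPKM are the authors' length- and depth-scaled values, per the file headers. The tools listed in the submitters' processing notes were TopHat2 2.1 and DESeq 1.10.1, with GRCm38 as build. What each did, the counting program and the annotation were not given in the sources used here. Of 14250 rows, 688 named newGene carry no gene and held 2.51% to 2.93% of counts. They stayed out of library sizes. The symbols of 23 rows had become dates and were replaced through their identifier, and GENCODE M21 gave positions for 13559 rows.

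CPM used TMM factors (0.973 to 1.02) and the spread came from edgeR 4.0.16 with an intercept only, a step tested on simulated data. Means and SD cover 3 mice. Exon sharing was read from GENCODE M21 without strand. The 65 lists hold 724 genes, of which 620 were analysed, and the members and lists were chosen with earlier results of these data known.

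Genes named in the text are the 8 markers, the 20 highest nuclear genes, the 12 with the largest and 8 with the smallest spread, up to 4 highest members of each list, and every member of the AMPA, NMDA, GABA-A, sodium and HCN families. Some genes that this rule names are not reported here. Further list members, the gamma protocadherins and Nptxr were chosen after their values were seen. Alternatives were other scalings, count minimums, lengths from the annotation, rows kept or left out, and leaving out each mouse. Scalings of the list orders and leaving out genes that share exons were added after seeing the data. No near-duplicate libraries were found: counts of any 2 mice differed by a chi-square of at least 31.6 per degree of freedom.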

Additional observations from a re-analysis of the deposited data

How the results depend on the processing

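No paired analysis was possible because the values come from 1 group of mice and from no test. With counts per exonic length of the annotation in place of the authors' FPKM, 139 genes held 50% of the summed level, the 100 highest genes held 47.6%, Slc17a7 to Gad1 was 14.7, Cux2 to Fezf2 0.772, Grin2a to Grin2b 0.485 and Slc12a5 to Slc12a2 11.9, and the Gria2 share was 22.8%. The direction turned for Cux2 to Fezf2 alone among the ratios tried, and the Scn8a share moved by less than 1 SD, to 42.8%. Without mitochondrially encoded genes 951 genes held 50% and the 100 highest 17.3%. The biological coefficient of variation was 0.136 with library totals, 0.143 with the newGene rows, 0.126 with a mean of at least 100 counts, and 0.132 to 0.136 leaving out 1 mouse. The genes with a range over 2-fold numbered 149 to 162 with 1 mouse left out, when only 2 mice form the range, 511 from 20 counts on, 99 from 1000 counts on, and 897 at 1.5-fold. Without genes that share exons 211 genes lay above 2-fold, a setting chosen after seeing the data. The other settings moved no value by more than 1 SD or a count by over 1.5 times. The mouse lowest most often in a list stayed the same under 5 scalings for the meninges (13 of 13), oligodendrocyte (19 to 20 of 20), immediate early (21 to 22 of 26), layer 6 (9 to 10 of 12), clock (11 to 13 of 16), potassium channel (19 to 24 of 34), layer 2/3 (7 to 9 of 12), precursor (9 to 10 of 12), presynaptic (15 to 19 of 27) and postsynaptic genes (13 to 16 of 21). Inhibitory neuron genes were highest in Saline 3 in 12 to 15 of 22. For excitatory neuron genes the lowest mouse was Saline 3 in 8 to 11 of 20, and Saline 2 with 10 when totals without mitochondrial genes were used. The same counts over all 12386 genes moved with the scaling. Saline 1 was lowest in 4001 with TMM, 6140 with library totals and 6126 with the authors' FPKM. Saline 2 was lowest in 3087 to 4151 over the 5 scalings, and Saline 3 in 3093 to 4420. Saline 3 was highest in 4254 with TMM and in 5404 with totals without mitochondrial genes.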

Other observations

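Heat shock genes were led by the constitutive chaperone genes Hspa8, Hsp90ab1 (534, 514 and 548 FPKM) and Hsp90aa1 (236, 264 and 273 FPKM). Of the glycine receptor genes, Glrb, whose product anchors the receptor at synapses, had 50.1, 55.2 and 52.6 FPKM, against 4.48 ± 1.02 FPKM for the alpha subunit gene Glra2 and 2.70 ± 0.372 FPKM for Glra3. The vesicular chloride-proton exchanger genes Clcn4 and Clcn3 overlapped, at 32.8 ± 1.95 and 31.9 ± 1.35 FPKM. Hrh1, the histamine H1 receptor gene, had 62, 174 and 341 counts, a 5.53-fold range in CPM, while its FPKM were 2.18, 3.32 and 3.91. Syt2, a vesicle calcium sensor gene of fast-spiking terminals, had 291, 890 and 340 counts, a 2.92-fold range in CPM, while its FPKM were 2.40, 3.83 and 3.15, a 1.59-fold range. Saline 2 was highest, the mouse that was also highest in Pvalb. These genes were chosen after their values were seen.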
